A study of Mus musculus with 6 samples.

Results

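The cytosolic ribosomal protein family was read out on arrays of KPC001, a mouse pancreatic cancer cell line. Its members were all array gene symbols that start with Rpl or Rps and a number or with Rplp, together with Rpsa, without the ribosomal S6 kinases (Rps6k) and without pseudogene symbols that carry -ps. This rule gave 96 probes of 65 genes, out of 19057 genes named on the array. The series compared CD133+ with CD133- cells of this line, with 3 samples in each population. Both populations came from the same untreated line, grown in high-glucose medium with serum, and the line was derived from a tumour model called KPC. CD133 is a surface glycoprotein used to mark tumour-initiating cells. Total RNA of each sample was labelled with biotin and hybridised to 1 Illumina bead array in 1 colour. The labels do not say whether samples came from separate cultures or sorts, so p-values cover the spread between the 6 samples at hand, and that spread may be technical. A single line limits the comparison to its own cells, and in such bulk samples fewer cells of a type and less RNA per cell cannot be told apart.

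The cytosolic ribosome is built from a small 40S and a large 60S subunit, each a core of ribosomal RNA with a shell of proteins. The small subunit decodes the messenger RNA and the large subunit joins the amino acids and passes the chain into an exit tunnel. Ribosomal protein messages are among the most abundant in dividing cells, and in mammals most begin with a run of pyrimidines at the cap, the terminal oligopyrimidine (TOP) element, through which growth signals set their translation. A few of these proteins also act outside the ribosome, for example by binding MDM2, the ubiquitin ligase of p53.

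By role, the members were 33 probes of 23 genes of the 40S subunit, 47 probes of 30 genes of the 60S subunit, and 5 probes of the 3 P stalk genes. The P stalk is a lateral arm of the 60S subunit that recruits elongation factors. A further 6 probes stood for 6 paralog genes that can replace or resemble a core protein, and 5 probes stood for 3 genes that share the name but are no core subunit. A RefSeq gene table listed 89 protein-coding genes under the same symbol rule, and 64 of them had a member probe. The other 25 were not analysed here. The remaining member, Rps4l, is no protein-coding gene in that table. The table also listed 309 ribosomal protein pseudogene symbols with -ps, and probe sequences were not used here, so signal from near-identical copies was not separated from that of the parent genes.

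The surroundings of the start sites of the members were searched for pyrimidine runs. A 30-base window, 15 bases before to 15 after each RefSeq start (build GRCm38.p6), was read on the coding strand for a run of at least 8 letters that are all C or T. Such a run lay in the window of 22 of the 54 member genes with a listed start, 40.7%, against 13.9% of all 27025 genes with a listed start. The 11 members without a listed start are not included. The windows below are examples from genes whose values are given further on. They do not show how often members hold a run. Rps19, Rps16, Rps13, Rps15 and Rpl41, also named further on, had no run of at least 8 letters at any listed start. Capitals mark the longest run, and lower-case windows hold no run of that length.
Rps24 (chr14:24490663-24490692, plus strand): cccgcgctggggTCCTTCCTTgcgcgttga
Rpl28 (chr7:4792950-4792979, plus strand): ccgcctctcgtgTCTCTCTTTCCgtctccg
Rpl27a (chr7:109519180-109519209, plus strand): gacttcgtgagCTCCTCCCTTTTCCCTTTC
Rpl31 (chr1:39367836-39367865, plus strand): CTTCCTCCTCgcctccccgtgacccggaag
Rpl34 (chr3:130730323-130730352, minus strand): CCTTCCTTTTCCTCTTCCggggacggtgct
Rpl23 (chr11:97782425-97782454, minus strand): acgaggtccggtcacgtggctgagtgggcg
Rps2 (chr17:24720048-24720077, plus strand): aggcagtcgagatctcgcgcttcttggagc

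The longest run of any member, 21 letters, was that of Rpl7a. Rps24 and Rpl34 each have a second listed start, and the start with the longer run is shown. Genes with and without such a run stood side by side at the top of the array range and among the differences below. A match describes these letters, and no match says only that they are not in this window. A run could lie anywhere in the window, and that of Rpl31 lies wholly before the listed start. A match therefore need not be a TOP element, which begins at the cap.

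On each array, 17123 to 18057 of the 45281 probes were detected (detection p under 0.05), with a median of 37 to 41 beads behind a probe. The 3 probes of Prom1, which encodes CD133, were detected on 0 arrays and give no check of the labels. Epithelial markers were present, with Krt7, Krt8, Krt18, Krt19, Cdh1, Cldn4, Muc1 and Sox9 detected on all 6 arrays and Epcam on 0. Of the marker genes with a named probe, 10 of 11 ductal epithelial ones were tested, against 2 of 10 fibroblast, 2 of 9 leukocyte, 3 of 8 endothelial and 1 of 10 acinar and endocrine ones. Summed signals were taken after background correction and before normalization. At that stage the median of all tested probes differed by -0.11 on the log2 scale, CD133+ minus CD133-. The summed signal of the epithelial markers was 22507 to 24929 on the CD133+ arrays and 26443 to 29989 on the CD133- arrays. That of the leukocyte markers was 127 to 148 on the CD133+ arrays and 160 to 163 on the CD133- arrays, with Cd3e, Cd8a and Itgam detected on no array. After normalization, 0 of 15 epithelial and 0 of 2 leukocyte probes passed an adjusted p of 0.05 by limma, against 1.53% of all tested probes. Of these, 9 epithelial probes (median -0.042) and 2 leukocyte probes had a difference below 0, against 53.7% of all tested probes. The part of these markers in the results below was not tested.

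Many members of the family sat at the top of the array's range, while 34 tested ones had a mean intensity under 5000. Of the 96 probes, 80 probes of 57 genes passed the filter on dim probes, which asked for detection on at least 3 of the 6 arrays, and 77 of these were detected on all 6. The deposited intensity, the mean brightness of a probe's beads on a linear scale, was at least 10000 for 32 member probes, out of 151 such probes on the whole array. Members held 2 of the 10 brightest places, 12 of the 50 brightest and 27 of the 100 brightest. These places were ranked over all 45281 probes, of which 96 were members. Among the tested probes members were 0.465%. A probe's brightness also depends on how well its own sequence hybridises, so these values place a probe within the range of the array and do not rank the abundance of genes.

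Nearness to the ceiling was measured as a percent of the highest probe intensity on the same array. No single ceiling was shared by the arrays. The highest intensity was 29703, 27474 and 24204 on the 3 CD133+ arrays, against 28211, 29067 and 26911 on the 3 CD133- arrays. It belonged to Fth1, the ferritin heavy chain, on 1 and to Rps2 on 2 of the CD133+ arrays, and to an unnamed probe, Rplp1 and Rps2 among the CD133- arrays. Between 5 and 8 probes per CD133+ array and between 4 and 13 per CD133- array reached 90% of that maximum.

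Of all probes, 64 stayed at or above 50% of the maximum on every array, and 17 of these were ribosomal protein probes of 15 genes, 26.6%. They were 8 probes of the 40S subunit, 8 of the 60S subunit and Rplp1. The brightest was Rps2 (ILMN_2717549), a protein near the entry of the messenger RNA channel, at 93.9%, 100% and 100% of the maximum on the CD133+ arrays and 95.9%, 87.8% and 100% on the CD133- arrays. Rplp1, an acidic protein of the P stalk, followed with 89.7%, 99.8% and 85.8% on the CD133+ arrays and 88.5%, 100% and 98.4% on the CD133- arrays. Rpl41, one of the shortest known proteins, stood at 85.4%, 85.9% and 85.6% on the CD133+ arrays and 97.8%, 80.5% and 89.0% on the CD133- arrays. For each of these 3 probes the populations overlapped. Rpl38, which in the mouse is needed for the translation of Hox messages, stayed between 80.2% and 92.5% over the 6 arrays (ILMN_3135931), and Rps29 between 78.8% and 89.1%. Rpl23 (ILMN_2946482) ranged from 77.4% to 88.3%, the other Rps2 probe (ILMN_2946616) from 72.2% to 96.5% and Rpl37 from 70.4% to 82.2%. Both probes of Rps12 lay between 64.5% and 74.7%. The 47 other probes at or above 50% include many without a gene symbol. The symbol rule could not place those in or out of the family.

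**Figure D1:**
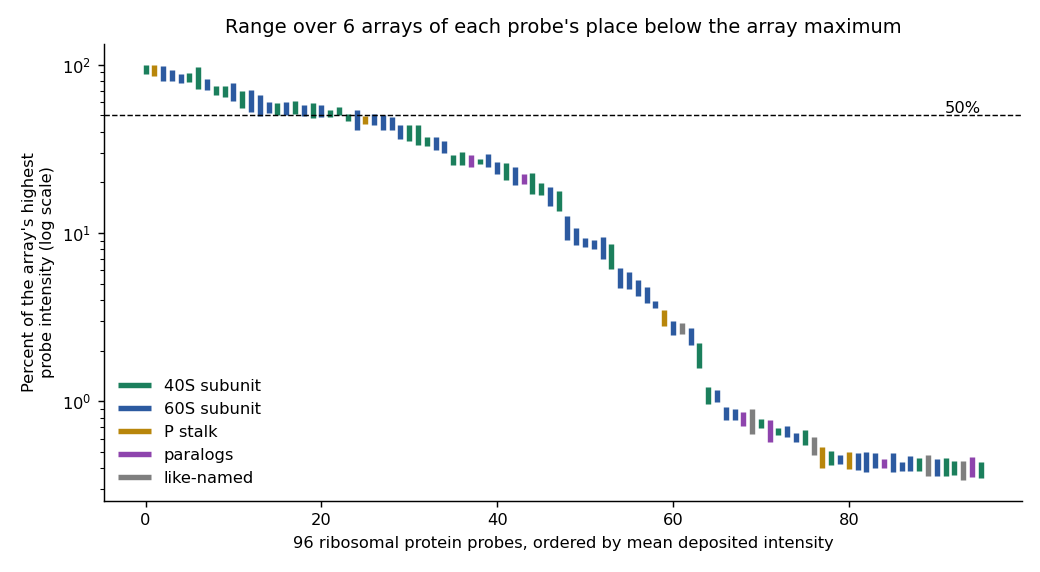
Each bar is 1 of the 96 ribosomal protein probes and spans its lowest and highest value over the 6 arrays, as a percent of the highest probe intensity on the same array (log scale), ordered by mean deposited intensity and coloured by role. A total of 17 bars lie wholly at or above the 50% line, from both subunits and the P stalk, while the dimmest members lie below 1%.

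Over the 80 tested members, bright and dim, the standard error of the beads behind an intensity had a median of 3.71% of that intensity (2.15% to 8.41%), from a median of 35.6 beads. At the other end, 9 tested members had a mean intensity under 200. The 16 members that did not pass the filter included 12 detected on no array. As a result 8 genes had no tested probe, namely Rpl14, Rpl17, Rpl6, Rps20 and Rps23 of the core subunits, the paralogs Rpl39l and Rpl3l, and Rps23rg1. Rpl39l and Rpl3l are known as forms of testis and of muscle, and neither was detected on any array. The core proteins are needed in every cell that makes ribosomes, so a dim probe gives no statement about their transcripts.

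The comparison of CD133+ with CD133- cells, tested with limma, found 0 of 80 ribosomal protein probes past a Benjamini-Hochberg adjusted p of 0.05 over all 17219 tested probes. On the array as a whole 1.53% passed, 264 in number, with 216 higher (1.25%) and 48 lower (0.279%) in CD133+ cells. At an unadjusted p under 0.05 there were 2 members, 1 higher (Rpl23) and 1 lower (Rps24), which is 2.5% of the family against 16.6% of all tested probes (9.08% higher, 7.52% lower). The smallest adjusted p among members was 0.180. With a variance trend and robust fit, the shares at an unadjusted p under 0.05 were 18.75% of members and 18.9% of all tested probes. With the authors' own intensities in place of the background-corrected and quantile-normalized ones, 5 members passed, all higher in CD133+ cells, where 6.72% of all tested probes passed (4.86% higher).

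Differences were narrow among the bright and the dim members of the family, and so were those of other bright probes. The median log2 difference of the 80 probes was 0.032, with the middle of the distribution between -0.047 and 0.094 (quartiles) and the extremes at -0.28 and 0.28. Over all tested probes the median was -0.016 and the quartiles were -0.13 and 0.12. No member reached a difference of 0.3 on the log2 scale in either direction, against 15% of all tested probes and 1.04% of the 289 other probes with a mean intensity of at least 5000. The 95% confidence interval of the difference lay within 0.5 of 0 on the log2 scale for 76 of the 80 members (95%), against 65.4% of all tested probes and 98.3% of those 289 bright probes. The lowest end of any member's interval was -0.68, for Rplp0, and the highest was 0.59, for Rps19bp1. The median standard error was 0.086 for members, 0.11 for all tested probes and 0.086 for the 289. Of the 34 members under 5000, 0 reached a difference of 0.3, against 2573 of the 16850 other probes under 5000. Their intervals lay within 0.5 of 0 for 88.2%, against 64.7%. Those members were brighter than the other dim probes, with a median log2 level of 8.91 against 7.02.

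The balance of signs depended on the scaling. In CD133+ cells 50 of 80 member probes had a difference above 0, 62.5%, against 46.3% of all tested probes, but after a median shift of each array the tally turned, with 16 of 80 members above 0 (20%) against 28.7% of all tested probes. The family's median lay above that of all probes in all 5 scalings tried, while it was itself below 0 after the median shift (-0.072, with all probes at -0.13). The populations did not overlap for 19 of 80 members, 23.75%, against 23.1% of all tested probes. Of these, 13 were higher and 6 lower in CD133+ cells, where all tested probes divided into 11.5% higher and 11.6% lower. Members share their samples, and probes of a gene share their RNA, so these counts are a description of these arrays.

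**Figure D2:**
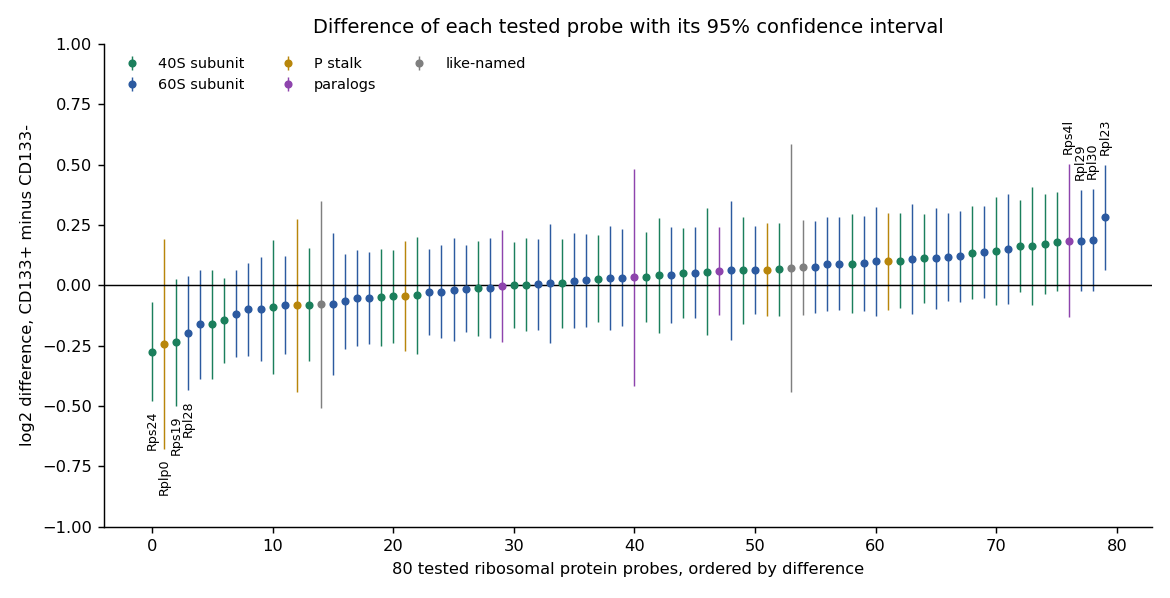
Points give the log2 difference, CD133+ minus CD133-, of each of the 80 tested ribosomal protein probes in rising order, with its 95% confidence interval from limma (n = 3 per group) and colour by role; the 4 lowest and 4 highest are named. The points run from -0.28 (Rps24) to 0.28 (Rpl23), and the intervals of all but 2 probes cross 0.

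In the 40S subunit, 29 probes of 21 genes were tested and 0 passed. Of the 29, 19 had a difference above 0 and 10 below, with a median of 0.034. Over all tested probes 1.53% passed, 46.3% had a difference above 0 and 23.1% had groups apart. Rps24, a small-subunit protein whose gene is mutated in some human patients with Diamond-Blackfan anaemia, was the member with the lowest difference and the smallest p. Its probe ILMN_1214875 read log2 7.54, 7.52 and 7.35 on the CD133+ arrays and 7.75, 7.71 and 7.78 on the CD133- arrays. All 3 CD133+ arrays lay below all 3 CD133- arrays, and the difference was -0.28 ± 0.09 (SE, n = 3 per group; limma adjusted p = 0.180). The bright Rps24 probe ILMN_3126986 read 13.75, 13.74 and 13.72 on the CD133+ arrays and 13.88, 13.87 and 13.90 on the CD133- arrays. These groups were apart too, with a difference of -0.14 ± 0.08 (adjusted p = 0.392). The probe ILMN_2625060 gave 8.56, 8.51 and 8.67 in CD133+ cells against 8.84, 8.61 and 8.77 in CD133- cells, where the groups overlapped (-0.16 ± 0.10). The 3 tested Rps24 probes are listed to 3 different transcripts, and each kept a difference below 0 in every alternative tried. The fourth, ILMN_2502673, was detected on no array although it is listed to the same transcript as the bright probe.

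Rps19, which is also a Diamond-Blackfan anaemia gene in human, had 2 tested probes that are listed to 1 transcript and pointed opposite ways. The bright probe ILMN_2862280 read 13.97, 14.06 and 13.92 on the CD133+ arrays and 13.85, 13.81 and 13.79 on the CD133- arrays. Its difference was 0.16 ± 0.08 with the groups apart (adjusted p = 0.370). The dim probe ILMN_2754355 read 6.03, 5.79 and 6.01 in CD133+ cells and 6.34, 6.13 and 6.06 in CD133- cells. Here the CD133+ arrays were the lower ones, again without overlap, at -0.24 ± 0.11 (adjusted p = 0.349). The bright probe was 92.4 times as intense as the dim one, so the direction for Rps19 rests on which probe is read.

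Rps16, a protein close to the decoding site, read 13.47, 13.56 and 13.46 in CD133+ cells against 13.41, 13.33 and 13.22 in CD133- cells, a difference of 0.18 ± 0.09 with the groups apart. Rps13 (ILMN_2940017) read 12.67, 12.81 and 12.69 in CD133+ cells against 12.65, 12.48 and 12.52 in CD133- cells (0.17 ± 0.09), and its dim probe gave -0.012. Rps15 gave 12.41, 12.27 and 12.35 in CD133+ cells against 12.24, 12.16 and 12.23 in CD133- cells (0.14 ± 0.08). For Rps16, the bright Rps13 probe and Rps15 every CD133+ array lay above every CD133- array, and none passed. Rps25 was at 0.17 ± 0.10 with overlapping groups, since the first CD133+ array, at 11.91, lay within the CD133- range. Rps6, the subunit protein that S6 kinases phosphorylate, was at 0.09 ± 0.09, and the probes of Rps3, a protein at the messenger RNA entry channel, were at 0.14 ± 0.10 and 0.062 ± 0.10. Rpsa, first known as a laminin receptor precursor, was seen only near background, on 1 CD133+ and 2 CD133- arrays (-0.089 ± 0.12). The other tested 40S probes lay between -0.079 (Rps2, ILMN_2946616) and 0.11 (Rps7), and Rps7, at 13.89, 13.80 and 13.85 in CD133+ cells against 13.70, 13.79 and 13.72 in CD133- cells, was the one with groups apart.

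In the 60S subunit without the stalk, 39 probes of 27 genes were tested and 0 passed, against 1.53% of all tested probes. Of the 39, 24 had a difference above 0 and 15 below, with a median of 0.031. Over all tested probes 46.3% had a difference above 0 and 23.1% had groups apart. Rpl23, a protein at the face between the subunits and one of those that bind MDM2, held the highest difference of the family. Its probe ILMN_1238227 read 9.61, 9.53 and 9.41 on the CD133+ arrays and 9.33, 9.20 and 9.17 on the CD133- arrays. The CD133+ arrays were all higher, by 0.28 ± 0.09 (adjusted p = 0.193, unadjusted p = 0.0177 by limma). It passed in 3 of the alternatives, with no background correction, with the authors' intensities (adjusted p = 0.0225) and with a variance trend. The 2 brighter Rpl23 probes, listed to the same transcript, gave 0.076 ± 0.08 and 0.031 ± 0.09 with overlapping groups. The last of these is the one near the array maximum, and it reads 14.42, 14.56 and 14.61 in CD133+ cells against 14.43, 14.59 and 14.48 in CD133- cells.

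Rpl29, a protein that also binds heparin, was with Rps19 1 of 2 genes whose probes had groups apart in opposite directions. The probe ILMN_2730005 read 11.21, 11.40 and 11.19 in CD133+ cells and 11.05, 11.09 and 11.11 in CD133- cells (0.19 ± 0.09). The probe ILMN_2857570 read 12.03, 12.03 and 12.09 in CD133+ cells and 12.14, 12.16 and 12.20 in CD133- cells (-0.12 ± 0.08). Their intensities differed by a factor of 1.88, they are listed to 1 transcript, and both signs were kept in every alternative.

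**Figure D3:**
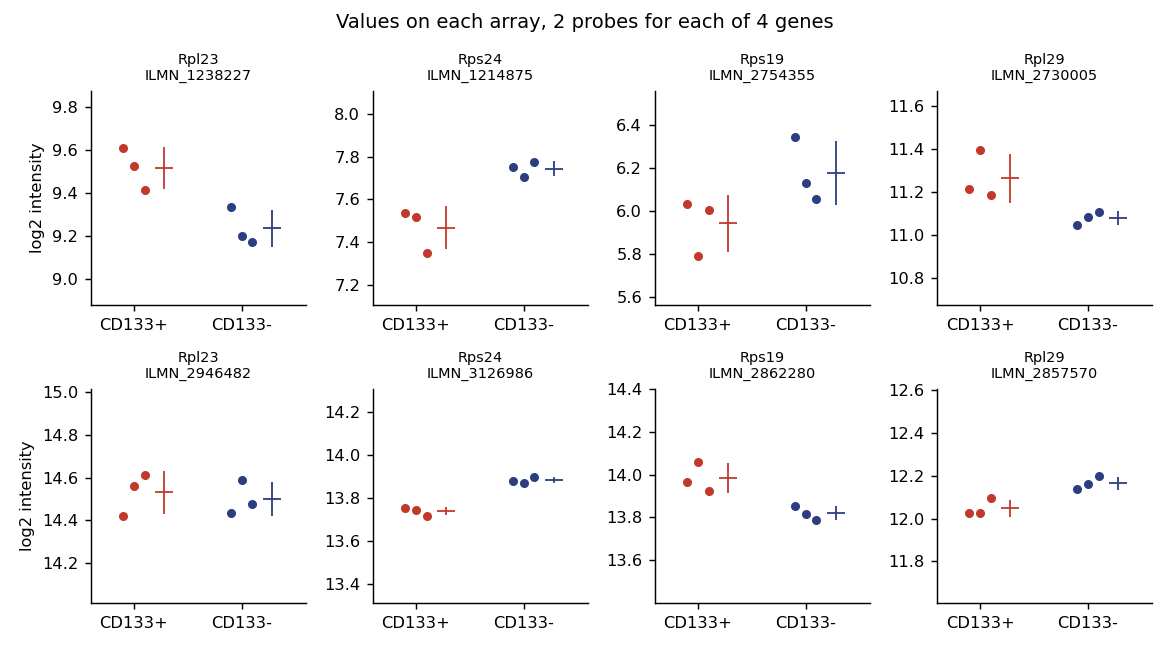
Dots give the normalized log2 intensity on each array for 2 probes of Rpl23, Rps24, Rps19 and Rpl29, with CD133+ arrays left and CD133- arrays right; the cross beside each group is its mean with 1 SD (n = 3). All panels span the same log2 width, and Rps19 and Rpl29 show groups apart in opposite directions between their probes.

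Among the other 60S proteins, Rpl30 (ILMN_2878430) read 10.17, 10.32 and 10.34 in CD133+ cells against 10.01, 10.17 and 10.09 in CD133- cells (0.19 ± 0.09), with the groups apart by a small margin. Rpl34 read 13.15, 13.22 and 13.25 in CD133+ cells against 13.01, 13.10 and 13.09 in CD133- cells (0.14 ± 0.08). Rpl31, a protein at the exit tunnel, had its brightest probe (ILMN_3152328) at 13.78, 13.77 and 13.71 in CD133+ cells against 13.76, 13.50 and 13.54 in CD133- cells (0.15 ± 0.10). Its groups overlapped through the first CD133- array alone. Rpl28 read lower on its dim probe (ILMN_2453804), with 7.01, 6.99 and 6.97 in CD133+ cells against 7.05, 7.36 and 7.14 in CD133- cells (-0.20 ± 0.10). Rpl19 gave 11.01, 10.95 and 10.93 in CD133+ cells against 11.07, 11.03 and 11.29 in CD133- cells (-0.16 ± 0.10). In both, every CD133+ array lay below every CD133- array. Rpl3, which shapes the catalytic centre, was at -0.099 ± 0.08 and Rpl27a (ILMN_2641304) at -0.098 ± 0.09, both with overlap. The 60S probes not named so far lay between -0.083 (Rpl21, ILMN_1225201) and 0.12 (Rpl27a, ILMN_1227653). Groups were apart among them for that Rpl27a probe, for Rpl31 (ILMN_3073486, 0.12 ± 0.08) and for Rpl26 (0.089 ± 0.08), each higher in CD133+ cells.

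The P stalk gave 5 tested probes with 0 passing and 0 with groups apart, and a median of -0.043. Over all tested probes 1.53% passed and 23.1% had groups apart. With 5 probes, these counts of 0 are no trait of the stalk. Rplp0, the base of the stalk, had a probe at 9.58, 9.52 and 9.70 in CD133+ cells against 9.48, 9.47 and 9.55 in CD133- cells (0.10 ± 0.09). Its other probe, detected on 1 CD133+ and 3 CD133- arrays, gave -0.24 ± 0.19. Rplp1 was at -0.043 ± 0.10. Rplp2 had a bright probe at 0.066 ± 0.08 and one near background, detected on 1 CD133+ and 2 CD133- arrays, at -0.082 ± 0.15.

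Of the 6 paralogs, 4 were tested and 0 passed, where 1.53% of all tested probes did. Rps27l, a paralog of Rps27 known as a p53 target, read 12.57, 12.47 and 12.32 in CD133+ cells against 12.42, 12.39 and 12.56 in CD133- cells, a difference of -0.0011 ± 0.10. Rpl36al, an expressed copy of Rpl36a, read 12.84, 12.90 and 12.84 in CD133+ cells against 12.82, 12.76 and 12.82 in CD133- cells (0.060 ± 0.08), with the groups apart by a small margin. Rpl22l1, the paralog that can replace Rpl22, read 6.17, 6.91 and 6.35 in CD133+ cells against 6.49, 6.58 and 6.27 in CD133- cells (0.033 ± 0.19), and the second CD133+ array was the highest of the 6. Rpl22 itself was at 0.020 ± 0.08. Rps4l gave 0.18 ± 0.14 with overlap.

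The like-named genes gave 3 tested probes with 0 passing, where 1.53% of all tested probes passed. Rpl7l1, a relative of Rpl7, had 2 probes at 0.075 ± 0.08 and -0.079 ± 0.18. Rps19bp1, which encodes a partner of Rps19 that also binds the deacetylase SIRT1, read 6.49, 7.34 and 6.53 in CD133+ cells against 6.83, 6.71 and 6.61 in CD133- cells (0.071 ± 0.22). Its second CD133+ array stood above the other 5, and its standard error was the largest in the family.

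Probes of a gene were kept apart because they did not always read alike. Of the 18 genes with at least 2 tested probes, 7 had all differences of 1 sign, and 17 list a single transcript for all their tested probes, with Rps24 as the exception. The gap between the highest and lowest difference of a gene had a median of 0.15 and reached 0.40 for Rps19, 0.34 for Rplp0, 0.30 for Rpl29, 0.26 for Rpl28, 0.25 for Rpl23, 0.22 for Rpl27a, 0.18 for Rps13 and 0.15 for Rpl7l1. The gaps of Rps19, Rplp0 and Rpl29 exceeded the largest difference between the populations in the family, 0.28. The brightest probe of a gene was a median of 8.02 times as intense as its dimmest, from 1.02 for Rps12 to 107 for Rplp2. The 2 probes of Rps12, alike in brightness, were also closest in difference (0.0092 and 0.028). Likeness in brightness did not always go with likeness in difference. With intensity ratios of 1.17, 1.88 and 1.91, the gaps were 0.15 for Rps2, with opposite signs, 0.30 for Rpl29 and 0.051 for Rps9.

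The lean of the signs differed with brightness and with scaling. The 46 member probes with a mean intensity of at least 5000 had a median difference of 0.043, with 32 above 0, against -0.0040 for the 289 other probes as bright, of which 140 were above 0. None of the 46 had an unadjusted p under 0.05, against 7.27% of the others. The 34 dimmer members had a median of 0.014, against -0.017 for the other dim probes. Among the 17 members nearest the maximum the median was 0.0092, with 9 above and 8 below 0, beside 0.0013 for the 47 other probes there. Of the 50 members with a difference above 0, 9 lay in that topmost zone. The other bright probes include many without a gene symbol, so some could carry ribosomal protein sequences. Whether they do was not tested.

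The step that set arrays to a common scale moved these medians. For bright members and bright other probes they were 0.086 and 0.024 with cyclic loess, 0.13 and 0.060 with the authors' intensities, and -0.046 and -0.12 with a median shift. With the authors' intensities, 44 of 46 bright members had a difference above 0, against 72.0% of the other bright probes, and 24 of all 80 members reached an unadjusted p under 0.05 (30%; 23 higher), against 19% of all probes (10.9% higher). The 5 that passed there were Rpl31 (ILMN_3152328, 0.26 ± 0.07), Rpl23 (ILMN_1238227, 0.25 ± 0.07), Rps16 (0.24 ± 0.07), Rps13 (ILMN_2940017, 0.23 ± 0.07) and Rps19 (ILMN_2862280, 0.23 ± 0.07), with adjusted p between 0.0171 and 0.0322. Over all tested probes 6.72% passed with these intensities. Of the 46 bright members 4 passed, 8.70%, against 9.34% of the other bright probes. The steps behind the authors' intensities are unknown, and the cause of the shift was not tested.

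**Figure D4:**
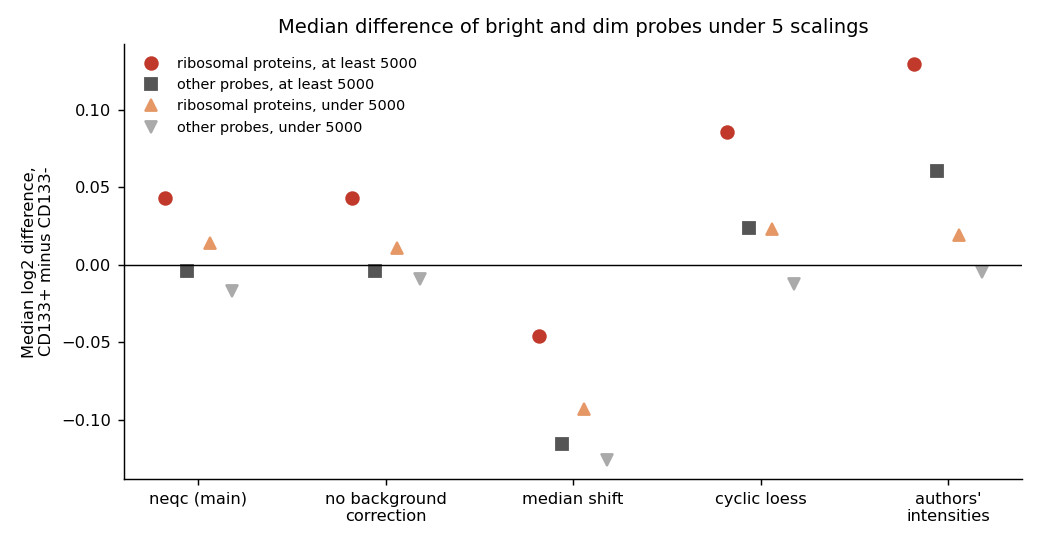
Symbols give the median log2 difference, CD133+ minus CD133-, of ribosomal protein probes and of other tested probes, each divided at a mean deposited intensity of 5000, under 5 ways of processing the same arrays. Bright ribosomal protein probes have the highest median in each of the 5, from -0.046 after a median shift to 0.13 with the authors' intensities, so the sign depends on the scaling.

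The share of an array's signal taken by the family is a different quantity, weighted towards the brightest members and relative to the array's total. After background correction and before quantile normalization, members held 6.76%, 6.91% and 6.69% of the summed signal on the CD133+ arrays, against 6.43%, 6.40% and 6.55% on the CD133- arrays. The CD133+ arrays were all higher, by 0.33 percentage points in the mean (6.79% ± 0.11 against 6.46% ± 0.081; SD, n = 3 each). In the deposited intensities without background correction the shares were 4.63%, 4.59% and 4.46% in CD133+ cells against 4.53%, 4.42% and 4.39% in CD133- cells, where the groups overlapped. Without the 17 members nearest the maximum the shares averaged 3.33% ± 0.024 in CD133+ and 3.16% ± 0.020 in CD133- cells, and did not overlap. The median log2 level of the members at that stage, where each probe counts alike, was 12.72 ± 0.07 in CD133+ and 12.74 ± 0.09 in CD133- cells, a difference of -0.029 where that of all tested probes was -0.11. With 3 arrays against 3, the smallest p of an exact two-sided permutation test is 0.10, so no p is given.

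The other parts of ribosome production were read from lists. Among 17 tested genes for translation factors and other products of TOP messages, 2 of 35 probes rose and 0 fell, with a median of 0.015. Over all tested probes 1.25% rose and 0.279% fell, 53.7% had a difference below 0 and the median was -0.016. Pabpc1, the cytoplasmic poly(A)-binding protein, rose by 0.90 ± 0.12 on its probe ILMN_2705407 (7.08, 6.88 and 7.18 in CD133+ against 6.11, 6.32 and 6.01 in CD133- cells; adjusted p = 0.0229), while ILMN_1259769 gave 0.44 ± 0.11 with groups apart and without passing, and the bright probe ILMN_1259482 gave 0.058 ± 0.10. Hnrnpa1, a splicing factor, rose by 0.52 ± 0.09 on ILMN_3096701 (9.91, 9.87 and 9.77 in CD133+ against 9.37, 9.38 and 9.25 in CD133- cells; adjusted p = 0.0399), and its other probes gave 0.14 ± 0.09 and -0.12 ± 0.20. All 3 probes of Eef2, the translocation factor, were higher in CD133+ cells at 0.34 to 0.40 without passing. Eef1a1, which delivers aminoacyl-tRNA, gave 0.021 ± 0.08 and 0.015 ± 0.08 on its bright probes, which stood at 84.4% of the array maximum or more on every array.

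Of 29 tested ribosome assembly genes with 46 probes, 1 probe rose and 0 fell, against 1.25% and 0.279% of all tested probes, and 28 differences were below 0 (median -0.062), where 53.7% of all tested probes were. Lsg1, the GTPase that releases the export adaptor Nmd3 from the new 60S subunit, rose by 0.67 ± 0.10 on ILMN_1248340 (6.99, 7.25 and 7.06 in CD133+ against 6.41, 6.38 and 6.49 in CD133- cells; adjusted p = 0.0288). Its brighter probe ILMN_1239569 gave 0.057 ± 0.08. For RNA polymerase I and its factors, 0 of 23 probes of 12 genes passed, against 1.53% of all tested probes, and 17 differences were below 0 (median -0.072), against 53.7% of all. Polr1a, the largest subunit, had 4 tested probes at -0.23 ± 0.08, -0.38 ± 0.15, 0.047 ± 0.10 and, on the brightest, 0.0014 ± 0.09. Polr1b was at -0.30 ± 0.12. In the list of MYC and p53 pathway genes 1 of 8 probes rose, against 1.25% of all tested probes, that of Max, the partner of MYC, by 0.59 ± 0.10 (6.04, 5.97 and 5.80 in CD133+ against 5.43, 5.24 and 5.37 in CD133- cells; adjusted p = 0.0417). Myc was at 0.13 ± 0.17. The differences of the 4 probes that rose stayed above 0 in all 16 alternatives, and they passed in 8 for Pabpc1, 7 for Hnrnpa1, 8 for Lsg1 and 5 for Max, whose largest adjusted p were 0.122, 0.225, 0.122 and 0.123. The smallest differences over these alternatives were 0.45 for Pabpc1, 0.34 for Hnrnpa1, 0.35 for Lsg1 and 0.20 for Max. None of the 4 passed in the 6 fits that left out 1 array, where 7 to 14 of all tested probes passed.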

How the data were processed

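Expression was measured in 3 CD133+ and 3 CD133- samples, grouped by their cell population label and numbered by their titles (a title without a number was taken as replicate 1). Per the file headers, the deposited table gives, per probe and array, the linear mean intensity of its beads, the standard error of the bead signal, a count of beads and a detection p-value. A second table holds intensities processed by the authors, by steps not stated in those headers or labels. Each of its columns ranked the probes as the deposited intensity did (Spearman correlation 1), with ratios from 0.852 to 1.105. The deposited intensities were then processed with neqc of limma 3.58.1 (R 4.3.3), a normal-exponential background correction that infers the negative controls from detection p-values, adds an offset of 16, takes log2 and normalizes by quantiles. The offset compresses the differences of dim probes.

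Probes detected (p under 0.05) on at least 3 of 6 arrays were tested with lmFit and eBayes, two-sided and without covariates, with Benjamini-Hochberg adjustment over 17219 probes. The script was tested on simulated data. Symbols are those of the array's own annotation and may be outdated. Of 45281 probes, 34885 had 1 symbol, 18 several and 10378 none, and the symbols of all 96 member probes were found unchanged through their gene identifier in a RefSeq table. The members and gene lists were chosen with earlier results of these data known. Named were members that passed (none did), the 10 probes with the smallest p in each direction, the 10 brightest, the 8 genes with the widest gap between probes, the tested paralogs, stalk and like-named genes, and from each list up to 4 genes that passed or else the 2 with the smallest p. Other probes named were chosen after their values were seen. Same-numbered samples of the populations showed no shared deviation (correlations 0.020, 0.0018 and 0.018). The main fit used no pairing, and such correlations cannot tell whether same-numbered samples came from a shared culture or sort. The alternatives changed background correction, normalization, filter, variance model, array weights, replicate block, single arrays and the handling of several probes per gene.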

Additional observations from a re-analysis of the deposited data

How the results depend on the processing

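The number of arrays limits the precision, and dim probes are compressed by the offset. The member count past the threshold was 0 in 15 of the 18 alternatives. Such a 0 says little where few probes of the whole array passed. That was so with the replicate block, the median shift and single arrays left out. It was 1 with no background correction, 1 with a variance trend and robust fit (Rpl23 in both) and 5 with the authors' intensities, and 0 when each array was left out in turn. Over all tested probes 264 passed (216 higher, 48 lower), against 1157 (836 higher, 321 lower) with the authors' intensities, 1110 (748 higher, 362 lower) without background correction and 734 with normexp without negative controls. The count was 37 (25 higher, 12 lower) with a median shift, 113 without the filter on dim probes, 554 with detection p under 0.01 on all 6 arrays, 1095 (732 higher, 363 lower) with the variance trend, and 7 to 14 with single arrays left out. It was 301 with cyclic loess and 285 with array weights. Of 9430 genes, 102 passed with the mean of a gene's probes and 106 with the brightest probe. With the replicate block 6 of all 17219 tested probes (3 higher, 3 lower) and 0 members passed.

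Members at an unadjusted p under 0.05 numbered 2, which is 2.5% against 16.6% of all tested probes. In alternatives chosen after seeing the data they numbered 24 (23 higher) with the authors' intensities, 30% against 19.0% of all. Without background correction there were 12 (9 higher, 15% against 19.1%), and with normexp without negative controls 7 (6 higher, 8.75% against 18.4%). A median shift gave 5 (0 higher, 5 lower, 6.25% against 19.1%) and cyclic loess 5 (4 higher, 6.25% against 16.6%). With the variance trend there were 15 (12 higher), 18.75% against 18.9%. The mean of a gene's probes gave 1 (1.75% against 16.2%) and the brightest probe 0 (against 16.1%). With single arrays left out there were 2 to 4, against 14.3% to 15.8% of all tested probes. The family's median of 0.032 became 0.093 with the authors' intensities, 0.072 with cyclic loess and -0.072 with a median shift, which moved all probes to -0.13, and lay between 0.024 and 0.040 with single arrays left out. At 25% of the maximum in place of 50%, 38 members out of 204 probes counted as near it, in place of 17 out of 64. The gain in signal share of 0.33 percentage points became 0.12 in the deposited intensities and 0.17 without the members nearest the maximum, both also chosen after seeing the data. Leaving those members out also lowered the share itself, in CD133- cells from 6.46% to 3.16%, so these gains do not share a base. The cause of these shifts was not tested. Of 726 values of 46 named member probes over 16 alternatives, 671 kept their direction without passing, 48 changed direction without passing, 7 passed and 0 passed in the opposite direction.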
